A study of Mus musculus with 36 samples.

Results

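Lgr5 GL cells are the genetically labelled (GL) progeny of Lgr5+ stem cells of the tail hair follicle (HF), and the question here was how their transcriptome 8 weeks after a first wound (8w pw1) compared with that of the same lineage before any wound (0w). The comparison was defined by its sample labels, which put 3 libraries at 8w pw1 and 3 at 0w, so 6 of the 36 libraries of the series entered it, and every gene with enough reads was tested, 18025 of the 22587 in the Lgr5 count table. Mice carried Lgr5-EGFP-ires-CreERT2, which drives tamoxifen-dependent Cre from the Lgr5 locus, and Rosa26-fl/STOP/fl-tdTomato, a reporter that turns on red fluorescence for good once Cre has acted. All of them received topical 4-hydroxytamoxifen on the tail at 6 to 8 weeks of age, and mice of both sexes were used in the study. The 0w mice were taken 1 week later, unwounded, at 7 to 9 weeks of age. The 8w pw1 mice were given a full-thickness tail punch wound of 2 mm at that age and were taken 8 weeks afterwards, so they were also 8 weeks older and 8 weeks further from labelling. No unwounded library of that age was analysed here, and the wound, the age and the time since labelling cannot be told apart. Each library was made from 150 sorted tdTomato+ cells, at 0w from unwounded tail skin and at 8w pw1 from skin that took in the wound bed together with more distant HFs. The reporter stays on in the progeny, so the sorted cells include any that had left the stem cell state.

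Lgr5 is a receptor for R-spondins, secreted proteins that strengthen Wnt signalling, and it marks stem cells of the lower follicle, the bulge and the hair germ. These cells rest for most of the hair cycle under BMP signalling and feed the growing hair when Wnt signalling prevails, and after a wound some of their progeny leave the follicle for the epidermis. Immediate early genes, such as those of the AP-1 factors Fos and Jun, are transcribed within minutes of a stimulus and are also raised in stressed keratinocytes. Hemidesmosomes and laminin-332 fasten basal keratinocytes to the basement membrane.

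The 6 libraries held between 2250348 and 5795482 counts. Levels are given below as CPM, read counts scaled to a common library size, with the totals adjusted by the TMM method. The 0w libraries, called a, b and c, did not resemble each other equally. Across genes, the log2 CPM of a and b had Pearson's r of 0.857, and c had 0.776 with a and 0.779 with b. The 8w pw1 libraries had r of 0.835 to 0.904 with each other, and 0w a and b had 0.865 to 0.873 with 8w pw1 b and c. Library 0w c also gave the largest share of its counts to 1 transcript, Gm12415, with 45.4%, against 29.0% and 32.9% in 0w a and b and 15.2% to 30.1% at 8w pw1. Several gene lists below are given with and without 0w c, and most single genes with their level in each library only.

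The sorted cells carried the marks of the bulge in both groups. *Krt15*, a keratin of bulge stem cells, stood at 16678, 18382 and 13508 CPM at 0w and 20135, 17598 and 19854 CPM at 8w pw1. *Sox9*, a transcription factor of the bulge, stood at 2419, 2117 and 1172 CPM at 0w and 1481, 2134 and 1771 CPM at 8w pw1. *Krt5*, a keratin of all basal keratinocytes, stood at 4100.1, 5393 and 4219.8 CPM at 0w and 3438, 5207 and 4488 CPM at 8w pw1. The groups overlapped for all 3 genes. *Lgr5* itself was at 499, 494 and 321 CPM at 0w and 129, 396 and 178 CPM at 8w pw1, with a log2 fold change of -0.90 (SE 0.51) that did not pass the test. Markers of the upper follicle varied widely inside both groups. *Krt79* was at 1167, 362 and 40.3 CPM at 0w and 355, 71.9 and 409 CPM at 8w pw1. *Cst6* was at 2398, 1230.0 and 172 CPM at 0w and 2224, 411 and 827 CPM at 8w pw1. Other skin cells left few reads. The 8 fibroblast markers took 0.0569% to 0.101% of counts at 0w and 0.0244% to 0.0646% at 8w pw1, and the 4 of 13 immune markers with a row took at most 0.00104% in any library. Of the latter the antigen-presenting gene *H2-Ab1* had 0, 0 and 2 counts at 0w and 16, 7 and 45 at 8w pw1, and the pan-leukocyte gene *Ptprc* 2, 29 and 7 against 2, 13 and 5. *Sparc*, a matrix protein of fibroblasts that some keratinocytes also make, was at 768, 947 and 376 CPM at 0w and 288, 461 and 158 CPM at 8w pw1. The X-inactivation transcript *Xist* had 190.4 to 399.9 CPM in the 6 libraries, and the Y-linked genes *Kdm5d* and *Uty* had 0 to 5 counts in each. In libraries of sorted cells such as these, fewer cells of a type and less RNA per cell cannot be told apart.

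No gene differed between 8w pw1 and 0w at an adjusted p under 0.05 with edgeR's quasi-likelihood test, fitted on all 18 Lgr5 libraries, so 0 of 18025 genes (0%) were called at a log2 fold change above 1 in size. The smallest adjusted p was 0.157, for *Dapl1*. At an unadjusted p under 0.05 there were 1070 genes (5.94%), 618 higher and 452 lower at 8w pw1 (3.43% and 2.51%), and 34 genes had p under 0.001. The 3 libraries of one group lay wholly above or below the 3 of the other for 2017 genes (11.2%), 1169 of them higher and 848 lower at 8w pw1 (6.49% and 4.7%), and with each library's trend on gene GC content removed the split was 988 higher and 1070 lower. An exact permutation test of 3 libraries against 3 cannot give p under 0.1. The same model called 77 genes higher (0.427%) and 155 lower (0.86%) at 1w pw1 than at 0w, and 9 higher (0.0499%) and 19 lower (0.105%) at 4w pw1. Other tests were less strict on the same counts: edgeR's likelihood ratio test called 22 genes higher and 13 lower, DESeq2 called 36 higher and 32 lower, and limma-voom called 1.

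The absence of calls is not a measure of no difference. The 95% interval of the log2 fold change lay inside 1 in either direction for 1713 genes (9.5%). Among the 1303 genes with a mean level of 100 to 1000 CPM this share was 54.7%, among the 8365 genes at 10 to 100 CPM it was 11.4%, and among the 8306 genes under 10 CPM it was 0.337%. Among the 51 genes at 1000 CPM or more it was 41.2%. *Krt15* was one of the genes so bounded, with a 95% interval from -0.34 to 0.83.

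The genes with the smallest p on the higher side at 8w pw1 included *Dapl1*, *Ier2*, *Id1*, *Jun* and *Krt28*, and none of them passed the adjusted threshold. Genes qualified by a mean of at least 10 counts over the 6 libraries, a log2 fold change above 1 in size and libraries that did not overlap, and 476 did so on the higher side. *Dapl1*, a gene of early epithelial differentiation, led them, at 163, 88.2 and 95.8 CPM at 0w and 541, 493 and 507 CPM at 8w pw1 (log2 fold change 2.15, SE 0.35, adjusted p = 0.157). The 3 libraries at 8w pw1 were close to each other, and the lowest of them, at 493 CPM, was far above the highest 0w library, at 163 CPM. *Ier2*, an immediate early gene, followed, at 175, 241 and 176 CPM at 0w and 698, 667 and 698 CPM at 8w pw1 (log2 fold change 1.80, SE 0.37, adjusted p = 0.463). *Id1*, a target of BMP signalling that blocks differentiation factors of the basic helix-loop-helix class, was at 217, 150.5 and 114 CPM at 0w and 342, 647 and 511 CPM at 8w pw1 (log2 fold change 1.64, SE 0.35, adjusted p = 0.463). *Jun*, the core AP-1 subunit, was at 183, 229 and 143 CPM at 0w and 477, 659 and 439 CPM at 8w pw1 (log2 fold change 1.5, SE 0.34, adjusted p = 0.463). For *Ier2*, *Id1* and *Jun* as well, every 8w pw1 library stood well above every 0w library. *Kcnk7*, of a potassium channel family, was at 42, 18.7 and 25.2 CPM at 0w and 63.2, 84.6 and 97.8 CPM at 8w pw1 (log2 fold change 1.52).

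The other 7 of the 12 leading genes were nearly silent at 0w. *Krt28*, a keratin of the inner root sheath, had 1.59, 0.415 and 0.345 CPM at 0w and 4.42, 11 and 4.83 CPM at 8w pw1. *Slc15a2*, a transporter of small peptides, had 1, 0 and 2 counts at 0w and 97, 59 and 485 at 8w pw1, a ratio of 199 with a 95% counting interval of 67.9 to 969. *Bspry* had no count at 0w and 12, 19 and 58 at 8w pw1, at least 27.7-fold higher when 3 counts are taken as the floor over the group. All 3 were detected in each library at 8w pw1. *Pcdh20*, a protocadherin, had 1 count at 0w and 82 at 8w pw1, a ratio of 76.5 with a counting interval of 13.3 to 3057. *Smcp*, first known from sperm mitochondria, had 1 count at 0w and 71 at 8w pw1, a ratio of 66.2 with an interval of 11.5 to 2651. *Gpr27*, an orphan G-protein-coupled receptor, had 0, 1.87 and 0 CPM at 0w and 12.4, 13.6 and 25.1 CPM at 8w pw1. *Tmem117* had 0.681, 0.208 and 0.689 CPM at 0w and 5.74, 3.9 and 24.7 CPM at 8w pw1. In both, 8w pw1 c was the highest library. These intervals and floors cover counting error only, and reads without molecular identifiers are not independent molecules.

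On the lower side 408 genes qualified, and the 12 with the smallest p included *Tsku*, *Cdca5*, *E2f3* and *Lamb3*. *Tsku*, a secreted proteoglycan that binds growth factors, was at 38.8, 49.6 and 53.4 CPM at 0w and 15.5, 15.1 and 8.15 CPM at 8w pw1 (log2 fold change -1.88, SE 0.40, adjusted p = 0.463). *Cdca5*, or sororin, which holds sister chromatids together, was at 3.4, 8.3 and 9.65 CPM at 0w and 0.442, 0 and 0.453 CPM at 8w pw1. *E2f3*, a transcription factor of S-phase entry, was at 14.3, 30.3 and 14.1 CPM at 0w and 1.33, 3.9 and 3.92 CPM at 8w pw1. In each of these the highest 8w pw1 library lay under the lowest 0w library. *Lamb3*, the beta3 chain of laminin-332, was at 706, 634 and 366 CPM at 0w and 201, 282 and 224 CPM at 8w pw1 (log2 fold change -1.27, SE 0.30, adjusted p = 0.463). *Col16a1*, a minor collagen of basement membrane zones, was at 109, 103 and 83.7 CPM at 0w and 26.5, 53.9 and 21.3 CPM at 8w pw1. *Angptl7*, an angiopoietin-like secreted protein, was at 1615, 1229.8 and 194 CPM at 0w and 54.3, 106 and 8.3 CPM at 8w pw1 (log2 fold change -4.18, SE 1.04). It varied most of these genes inside both groups, and its lowest 0w library, c, with 194 CPM, stood not far above its highest 8w pw1 library, b, with 106 CPM.

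*Golga7b* had 10, 39 and 15 counts at 0w and none at 8w pw1, at least 22.9-fold lower by the same floor. *Ctsl*, the lysosomal protease cathepsin L, was at 553, 467 and 475 CPM at 0w and 212, 237 and 231 CPM at 8w pw1, with little spread inside either group. *Gstm2*, a glutathione transferase, was at 48.6, 55.6 and 144 CPM at 0w and 22.1, 31.4 and 11.5 CPM at 8w pw1, and its level in 0w c was far above that in 0w a and b. *Mthfd1*, an enzyme of folate metabolism, was at 86.9, 71.2 and 108 CPM at 0w and 25.2, 43.6 and 18.7 CPM at 8w pw1. For both, every 8w pw1 library was below every 0w library. *Trim35*, of a family of ubiquitin ligases, was at 93.5, 118 and 82 CPM at 0w and 35.8, 41.9 and 34.3 CPM at 8w pw1. *Hnrnpc*, which binds nascent RNA and has processed copies in the genome that could share its reads, was at 108, 77.2 and 92.7 CPM at 0w and 22.5, 32.2 and 42.4 CPM at 8w pw1. All 24 leading genes had an adjusted p between 0.157 and 0.536. All kept their direction in every one of the 19 alternative fits that tested them. Of the 24, 17 were among the 35 genes called by edgeR's likelihood ratio test and 23 among the 68 called by DESeq2. These fits reuse the libraries in which the genes were chosen for their separation, so they add no independent support.

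**Figure D1:**
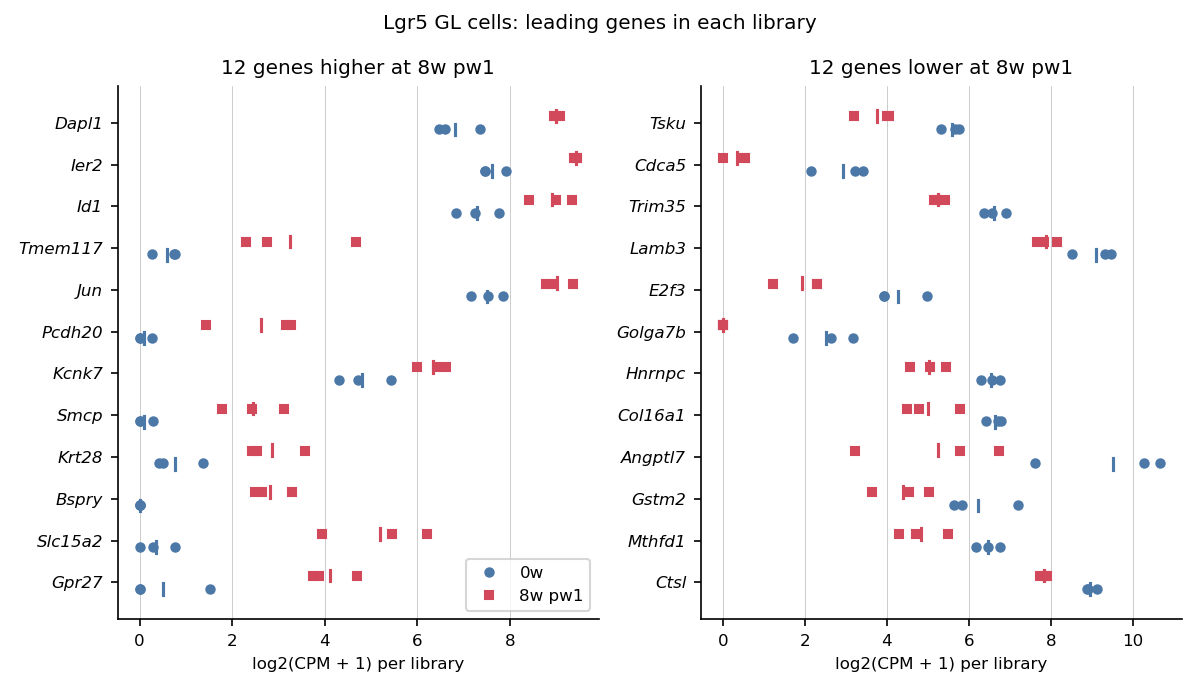
Level in each library of the 12 genes leading on the higher side (left) and the 12 on the lower side (right), as log2(CPM + 1). Blue circles are the 3 libraries at 0w, red squares the 3 at 8w pw1 and vertical ticks the means of the plotted values. Groups do not overlap in any row, as the choice of the genes requires, and the 3 red squares of *Dapl1*, *Ier2* and *Ctsl* lie close together.

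The AP-1 and immediate early genes stood at higher levels at 8w pw1 as a group. None of the lists below had a member that passed the adjusted threshold (0% of all genes did), so they are described by counts and medians. Of 19 tested, 18 had a positive log2 fold change, and the list median was 0.81, against 0.01 over all genes. Libraries did not overlap for 10 members, all higher (52.6%, against 6.49% of all genes), and 9 members had an unadjusted p under 0.05, all higher, against 3.43% of all genes. DESeq2 called *Ier2*, *Jun*, *Fos* and *Ier3* higher. *Fos*, the AP-1 partner of *Jun*, was at 56.5, 10.6 and 46.9 CPM at 0w and 129.9, 377 and 290.1 CPM at 8w pw1 (log2 fold change 2.81, SE 0.71, adjusted p = 0.509). *Fos* was lowest in 0w b and 8w pw1 a. *Junb* was at 342, 333 and 276 CPM at 0w and 719.9, 865 and 999 CPM at 8w pw1. *Jund* was at 20.9, 17.6 and 17.6 CPM at 0w and 32.7, 34.6 and 42.6 CPM at 8w pw1. Both are AP-1 subunits of the Jun family, and their 3 libraries at 8w pw1 were alike.

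*Fosb* was at 3.86, 0 and 5.51 CPM at 0w and 6.18, 71.2 and 24.3 CPM at 8w pw1. *Atf3*, a stress-induced factor of the same family, was at 0.227, 0.623 and 0 CPM at 0w and 0.883, 10.7 and 20.2 CPM at 8w pw1. In *Fosb* and *Atf3* library 8w pw1 a lay just above the 0w range and libraries b and c far above it. *Zfp36*, which destabilises cytokine mRNAs, was at 95.3, 112 and 35.5 CPM at 0w and 174, 371 and 289.6 CPM at 8w pw1 (log2 fold change 1.78, adjusted p = 0.642). *Ier3*, an early gene tied to cell survival, was at 162, 146 and 61.7 CPM at 0w and 259, 382 and 321 CPM at 8w pw1. *Dusp1*, a phosphatase that turns MAP kinases off, was at 109, 108 and 54.8 CPM at 0w and 123, 195 and 142 CPM at 8w pw1. These 3 genes separated the groups. *Egr1*, a zinc finger factor of the same class, was at 193, 165 and 45.5 CPM at 0w and 144, 265 and 298 CPM at 8w pw1, and its groups overlapped. The list median was 0.49 without 0w c, 1.26 without 0w a and 0.67 with the GC trend removed, and without 0w c, 10 of the 19 members still did not overlap, all higher, against 12.3% of all genes in that fit. The heat shock genes, which also answer to stress during tissue dissociation, had a list median of 0.11, with 1 of 10 members not overlapping (against 11.2% of all genes in either direction) and 6 of 10 with a 95% interval inside 1 in either direction. *Hspb1*, a small heat shock protein of differentiating keratinocytes, was that member, at 462, 541 and 367 CPM at 0w and 663, 750.2 and 958 CPM at 8w pw1. The part of dissociation stress in the levels of either list was not tested.

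**Figure D2:**
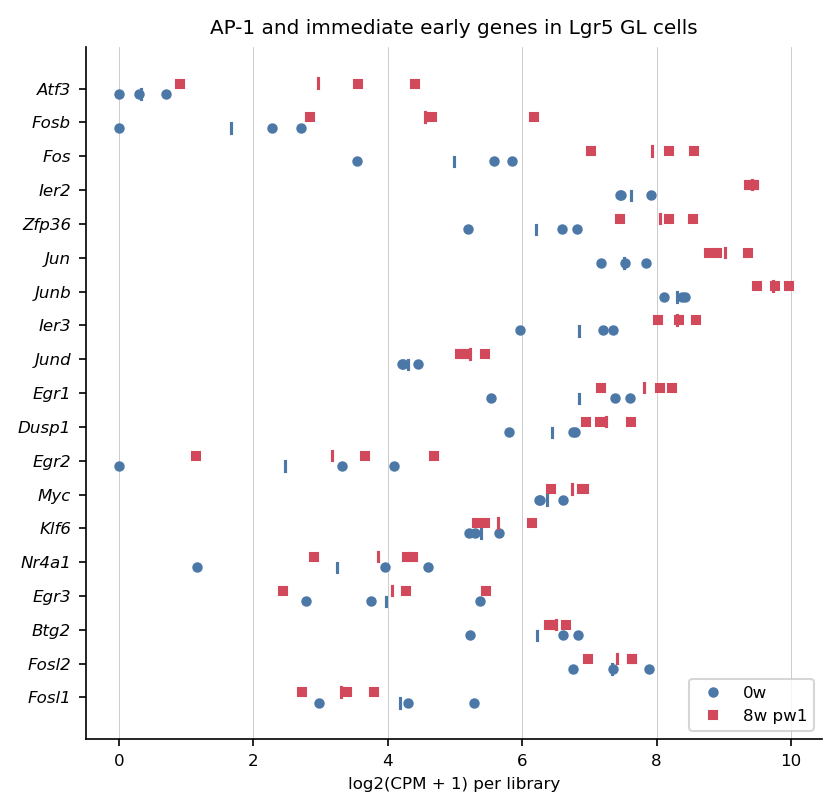
Level of the 19 AP-1 and immediate early genes in each library, as log2(CPM + 1), ordered by log2 fold change from top to bottom. Blue circles are 0w, red squares 8w pw1 and ticks the means of the plotted values. Squares and circles separate for 10 of the genes, and the lower rows overlap.

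The promoters of *Fos* and *Jun* are shown because both genes are classic targets of signals that act through short DNA elements next to the start site, and both stood higher at 8w pw1. The windows run from 250 bases before to 50 bases after the start of transcription, 5′ to 3′ on the strand of the gene, and come from RefSeq on GRCm38.p6. *Fos* lies on the plus strand at chr12:85473640-85473939 and *Jun* on the minus strand at chr4:95052173-95052472. Capitals mark TGACG, the half-site of the cyclic AMP response element, in *Fos* and TGACNTCA, the full element with any base at its centre, in *Jun*, searched on both strands.
Fos: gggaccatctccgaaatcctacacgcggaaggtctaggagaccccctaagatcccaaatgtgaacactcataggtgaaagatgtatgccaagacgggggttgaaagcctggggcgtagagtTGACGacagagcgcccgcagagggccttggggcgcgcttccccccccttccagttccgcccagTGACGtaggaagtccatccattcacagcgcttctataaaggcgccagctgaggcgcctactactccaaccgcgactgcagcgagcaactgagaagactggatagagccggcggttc
Jun: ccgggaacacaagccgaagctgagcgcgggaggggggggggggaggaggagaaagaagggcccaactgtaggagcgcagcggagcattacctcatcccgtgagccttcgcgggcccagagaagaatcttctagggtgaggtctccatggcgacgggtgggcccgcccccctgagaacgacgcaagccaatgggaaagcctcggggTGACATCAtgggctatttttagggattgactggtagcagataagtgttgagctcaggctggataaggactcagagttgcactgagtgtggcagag
*Fos* held TGACG at 2 positions, 129 and 66 bases before the start, and *Jun* held TGACNTCA at 1, starting 45 bases before it. Of the 19 genes of the list, 14 had a window. TGACG occurred in 8 of the 14 (57.1%) and in 33.8% of the 11169 tested genes with a window. TGACNTCA, whose matches can include TGACG, occurred in 4 (28.6%) and in 8.36% of tested genes, and the AP-1 element TGACTCA in 0 and in 4.79%. The serum response element known as the CArG box occurred in 2 (14.3%) and in 1.58%. These are matches of letters in the windows and say nothing about binding.

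Genes of interfollicular differentiation were mixed, with 8 of 13 positive, a list median of 0.65 (0.53 to 1.04 with 1 library left out) and 5 of 13 members not overlapping, all higher (38.5%, against 6.49% of all genes). *Klf4*, a transcription factor of terminal differentiation, was at 111, 139 and 78.6 CPM at 0w and 180.2, 229 and 289 CPM at 8w pw1 (log2 fold change 1.09, adjusted p = 0.688). *Dmkn*, a secreted protein of the suprabasal layers, was at 989, 975 and 619 CPM at 0w and 1472, 1403 and 1393 CPM at 8w pw1. *Sbsn*, from the same layers, was at 421, 402 and 199.9 CPM at 0w and 598, 588 and 672 CPM at 8w pw1. In all 3 genes library 0w c was the lowest. *Calml3*, a calmodulin of keratinocytes, was at 428, 361 and 344 CPM at 0w and 479.7, 644 and 656 CPM at 8w pw1. The suprabasal keratin *Krt1* was at 14.1, 25.3 and 8.96 CPM at 0w and 145, 12.7 and 182 CPM at 8w pw1, high in 2 of 3 libraries at 8w pw1 and inside the 0w range in library b. Its partner *Krt10* was at 922, 297 and 80.3 CPM at 0w and 629, 131 and 232 CPM at 8w pw1 (log2 fold change -0.39, SE 0.99, and 0.79 without 0w a), spread widely in both groups. Cornified envelope genes had lower levels for the most part, with 4 of 17 members positive and a median of -1.60 (-2.29 to -0.86 with 1 library left out). Without overlap, though, 2 members were higher and 1, *Cdsn*, was lower (11.8% and 5.88%, against 6.49% and 4.7% of all genes). *Cdsn*, which joins corneocytes, was at 655, 504 and 544 CPM at 0w and 140.5, 444 and 406 CPM at 8w pw1. The number of members with an unadjusted p under 0.05 was 5 higher and 1 lower for the differentiation list, against 3.43% and 2.51% of all genes. Without 0w c it was 1 and 1, against 691 and 468 of 19954 genes in that fit.

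Stem cell genes of the bulge were split evenly. Of 20 tested, 10 were positive, and the list median was 0.02. Without overlap 1 was higher and 1 lower (5% each, against 6.49% and 4.7% of all genes). Without 0w c the median was 0.03, and 2 were higher and 6 lower without overlap (10% and 30%, against 12.3% and 11.3% of all genes in that fit). *Fgf18*, a ligand that holds bulge cells at rest, was at 31.8, 84.9 and 19.6 CPM at 0w and 126, 155 and 152 CPM at 8w pw1 (log2 fold change 1.66, adjusted p = 0.769), every 8w pw1 library above every 0w library. *Dkk3*, a secreted protein of the Wnt-inhibitor family, was at 209, 326 and 277 CPM at 0w and 76, 176 and 124 CPM at 8w pw1 (log2 fold change -1.11). *Cd34*, a surface marker of the bulge, was at 242, 169 and 94.1 CPM at 0w and 38.4, 115 and 55.5 CPM at 8w pw1, with the groups overlapping in library b. Hair germ genes leaned lower, with 1 of 10 positive and a median of -0.70 (-0.90 to -0.49 with 1 library left out). *Lef1*, the Wnt-dependent transcription factor of hair growth, was at 20, 21 and 28.3 CPM at 0w and 2.65, 6.58 and 1.51 CPM at 8w pw1. It had a lower level in each 8w pw1 library than in any at 0w. *Msx2*, a factor of hair differentiation, went the other way at 32, 18.9 and 2.41 CPM at 0w and 49.9, 39.7 and 45.3 CPM at 8w pw1. Among hair shaft and root sheath genes *Krt75*, a keratin of the companion layer, was at 53.3, 45.2 and 55.8 CPM at 0w and 148, 176 and 109 CPM at 8w pw1. In that list 2 of 22 members did not overlap (9.09%, against 11.2% of all genes in either direction). *Sostdc1*, a secreted BMP and Wnt antagonist listed with the upper follicle, was at 509, 375 and 239.5 CPM at 0w and 149.7, 125 and 178 CPM at 8w pw1 (log2 fold change -1.31). None of the 16 sebaceous genes separated the groups.

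Genes of the basal layer and of its attachment to the basement membrane, taken as 1 list, leaned lower at 8w pw1. Of 14 members, 13 had a negative log2 fold change, the list median was -0.54, and the libraries of 6 did not overlap, all lower (42.9%, against 4.7% of all genes). *Itgb1*, the beta1 integrin, was at 278, 208 and 253 CPM at 0w and 136, 146 and 118 CPM at 8w pw1 (log2 fold change -0.89, SE 0.29, adjusted p = 0.696). *Itga6*, the alpha6 integrin, which pairs with beta4 in hemidesmosomes, was at 196, 159 and 131 CPM at 0w and 91, 130.4 and 127 CPM at 8w pw1. Both were lower in each 8w pw1 library than in any at 0w, by a small margin for *Itga6*. *Krt14*, the main type I keratin of basal cells, was at 5153, 5190.4 and 4589 CPM at 0w and 4301, 3276 and 4062 CPM at 8w pw1. *Trp63*, the master factor of stratified epithelia, was at 239, 294 and 228 CPM at 0w and 121, 226 and 200.3 CPM at 8w pw1. These separated the groups too, as did *Lamb3*. *Col17a1*, the transmembrane collagen of hemidesmosomes, was at 3000.1, 3069 and 1272 CPM at 0w and 1042, 1699 and 1114 CPM at 8w pw1 (log2 fold change -0.93). *Dst*, which links hemidesmosomes to keratins, was at 722, 899.8 and 323 CPM at 0w and 309, 388 and 267 CPM at 8w pw1. In both, library 0w c lay inside the 8w pw1 range and 0w a and b far above it. *Plec*, the other hemidesmosome plakin, was at 669.6, 577 and 494 CPM at 0w and 950.0, 738 and 622 CPM at 8w pw1 and was the member with a positive value. Without 0w c the list median was -0.75, and 12 of 14 members did not overlap, all lower, against 11.3% of all genes in that fit.

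Junction genes of the keratinocyte surface had a median of 0.05 over 18 members (-0.19 to 0.25 with 1 library left out), of which 11 had a 95% interval inside 1 in either direction. Without overlap 3 were higher and 1 lower (16.7% and 5.56%, against 6.49% and 4.7% of all genes). *Jup*, plakoglobin, was at 3574, 4136 and 1985 CPM at 0w and 4314, 5931 and 6259.6 CPM at 8w pw1 (log2 fold change 0.77, adjusted p = 0.757). *Perp*, a desmosomal protein, was at 4304, 4472 and 4743 CPM at 0w and 4934, 6061 and 7117 CPM at 8w pw1. Both were higher in each 8w pw1 library, by a small margin.

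Cell cycle genes had lower levels at 8w pw1, with 27 of 30 members negative and a list median of -0.90. Libraries did not overlap for 7 members, all lower (23.3%, against 4.7% of all genes). *Rrm2*, a subunit of ribonucleotide reductase, was at 50.1, 48.1 and 158 CPM at 0w and 32.7, 22.9 and 18.9 CPM at 8w pw1 (log2 fold change -1.79, SE 0.51, adjusted p = 0.601). *Tyms*, thymidylate synthase, was at 44.9, 69.1 and 60 CPM at 0w and 16.8, 18.8 and 19.3 CPM at 8w pw1. For *Tyms* the 3 libraries of each group were alike and the groups far apart. *Plk1*, a mitotic kinase, was at 18.8, 9.75 and 50.7 CPM at 0w and 7.51, 4.39 and 2.57 CPM at 8w pw1. *Aurkb*, the kinase of the chromosomal passenger complex, was at 6.35, 6.43 and 17.9 CPM at 0w and 2.65, 1.71 and 3.02 CPM at 8w pw1. Like *Rrm2*, both were highest in library 0w c. *Ccna2*, a cyclin of S and G2 phase, was at 14.5, 32.8 and 32.4 CPM at 0w and 11.5, 4.63 and 9.81 CPM at 8w pw1. *Ccnb2*, a mitotic cyclin, was at 21.6, 28.6 and 59.6 CPM at 0w and 15.5, 4.39 and 17.1 CPM at 8w pw1. *Cenpf*, a kinetochore protein, was at 20, 20.8 and 21.4 CPM at 0w and 6.63, 18 and 13 CPM at 8w pw1, and in these 3 genes the groups came close without overlapping. Without 0w c the median was -0.36, 18 of 30 members were negative, and 7 did not overlap on the lower side and 3 on the higher (23.3% and 10%, against 11.3% and 12.3% of all genes in that fit). The 10 inhibitors of the cycle and p53 targets had a median of -0.05, and of 0.52 without 0w c. *Cdkn1a*, the inhibitor p21, was at 144, 136 and 108 CPM at 0w and 273, 244 and 280.4 CPM at 8w pw1 (log2 fold change 1.04, SE 0.28, adjusted p = 0.552). *Cdkn2b*, the inhibitor p15, was at 37.9, 33.2 and 9.31 CPM at 0w and 87, 67.5 and 108 CPM at 8w pw1. Both were higher in each 8w pw1 library than in any at 0w, and 0w c had the lowest level of each.

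In the BMP and TGF-beta list 4 of 20 members were higher without overlap (20%, against 6.49% of all genes), 2 lower (10%, against 4.7%), and the list median was 0.13 (-0.16 to 0.28 with 1 library left out). Those higher were the target genes *Id1* and *Id3* and the ligands *Bmp6* and *Bmp7*. *Id3* was at 154, 154 and 141 CPM at 0w and 226, 377 and 439.8 CPM at 8w pw1. *Bmp6* was at 18.4, 25.7 and 5.51 CPM at 0w and 42.8, 65.6 and 70.9 CPM at 8w pw1. *Bmp7* was at 36.8, 51.3 and 30.3 CPM at 0w and 60.1, 68.5 and 105 CPM at 8w pw1. Library 0w c had the lowest level of each of the 4. Those lower were both secreted antagonists of BMP. *Grem1* was at 141, 153 and 131 CPM at 0w and 15.9, 53.6 and 17.2 CPM at 8w pw1 (log2 fold change -2.28, SE 0.69, adjusted p = 0.638), and *Nog*, noggin, was at 16.6, 13.5 and 13.4 CPM at 0w and 5.74, 9.26 and 1.66 CPM at 8w pw1. Both had their highest 8w pw1 level in library b and their lowest 0w level in library c. In the Notch list 2 of 13 members were higher without overlap (15.4%, against 6.49%), the target *Hes1* at 99.8, 77 and 60 CPM at 0w and 148, 252 and 202 CPM at 8w pw1 (log2 fold change 1.34, adjusted p = 0.509) and the receptor *Notch3* at 38.8, 56.2 and 17.6 CPM at 0w and 68.9, 79.7 and 80.9 CPM at 8w pw1. The most abundant receptor, *Notch1*, was at 532, 569 and 375 CPM at 0w and 417, 896 and 999.8 CPM at 8w pw1 and overlapped. Of 26 Wnt genes 2 were higher and 3 lower without overlap (7.69% and 11.5%, against 6.49% and 4.7%), and the median was 0.04. *Wnt4* was at 33.1, 28.2 and 16.5 CPM at 0w and 61, 35.3 and 77.4 CPM at 8w pw1. *Wnt16*, another ligand, had 0 counts at 0w and 15 at 8w pw1, at least 4.66-fold higher by the floor of 3 counts.

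The wound keratins and alarmins had a median of -0.06 over 8 members, none without overlap, and of -1.01 without 8w pw1 c. *Krt6a* was at 1627, 1852 and 701 CPM at 0w and 871, 1587 and 2110.2 CPM at 8w pw1. *Krt17* was at 3247, 2353 and 1730.1 CPM at 0w and 920.5, 1299 and 1864 CPM at 8w pw1. Both are stress keratins of wounded epidermis and of the follicle, and their groups overlapped. The neutrophil and keratinocyte alarmins *S100a8* and *S100a9* were high in 1 library at 8w pw1, c, with 100.4 and 32.9 CPM, and stood at 0 to 4.99 CPM in the other 5. Library 8w pw1 c was also the highest for *Mmp9*, a matrix protease, at 0.681, 0.208 and 0 CPM at 0w and 0.883, 5.36 and 24.6 CPM at 8w pw1. *Cebpb*, a factor of the acute-phase response, was at 15.4, 24.3 and 41 CPM at 0w and 42.4, 61.2 and 241 CPM at 8w pw1, again highest in c. Of the 24 migration genes 2 were higher and 3 lower without overlap (8.33% and 12.5%, against 6.49% and 4.7%), with a median of -0.32. *Mmp14*, a membrane-bound matrix protease, was at 163, 80.7 and 83.4 CPM at 0w and 51.2, 54.3 and 60.5 CPM at 8w pw1. *Itga5*, the fibronectin receptor chain, was at 37.2, 30.5 and 40.7 CPM at 0w and 15, 12.9 and 15.8 CPM at 8w pw1. *Tnc*, tenascin C, was at 188, 151 and 80.3 CPM at 0w and 29.6, 84.3 and 45.3 CPM at 8w pw1 (log2 fold change -1.39). Its groups touched only through 0w c and 8w pw1 b. Of the 13 inflammatory memory genes *Cebpb* and *Il18* were higher without overlap (15.4%, against 6.49% of all genes) and *Casp1* lower (7.69%, against 4.7%). *Il18*, a cytokine of the IL-1 family, was at 1.36, 0.83 and 0.345 CPM at 0w and 15.5, 4.14 and 8 CPM at 8w pw1. *Casp1*, the protease that activates it, was at 26.3, 14.3 and 23.8 CPM at 0w and 4.86, 10.2 and 1.96 CPM at 8w pw1. The EGF ligands and receptors had 0 of 13 members without overlap and a median of 0.14.

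Interferon and antigen-presentation genes had a median of 0.51, or 0.16 at a stricter filter on low counts, and 2 of 18 members higher without overlap (11.1%, against 6.49%). *Psmb8*, an immunoproteasome subunit, was at 10.2, 10.2 and 4.83 CPM at 0w and 27.8, 18.8 and 31.8 CPM at 8w pw1. *Tap1*, the peptide transporter, was at 57.9, 72.6 and 46.5 CPM at 0w and 79.5, 79 and 112 CPM at 8w pw1. Polycomb and H2A deubiquitinase genes had a median of 0.25 with 2 of 26 members higher without overlap (7.69%, against 6.49%), and a median of 0.02 without 0w c and -0.10 without 8w pw1 c. One was *Pcgf5*, a subunit of a variant Polycomb complex, at 4.31, 5.4 and 1.03 CPM at 0w and 17.7, 17.5 and 19.2 CPM at 8w pw1 (log2 fold change 2.31, adjusted p = 0.574).

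The glycolysis, nuclear oxidative phosphorylation and ribosome lists had medians near 0. Glycolysis genes had a median of -0.12, with 0 of 26 members without overlap. Nuclear oxidative phosphorylation subunits had a median of 0.10, with 3 of 87 members higher and 2 lower without overlap (3.45% and 2.3%, against 6.49% and 4.7% of all genes). Without 0w c their median was 0.27 with 15 higher (17.2%, against 12.3% of all genes in that fit), and without 8w pw1 a it was -0.10 with 11 lower (12.6%, against 7.94%). Cytoplasmic ribosomal proteins had a median of -0.05, with 1 of 75 members higher without overlap (1.33%, against 6.49% of all genes). Their median was 0.21 without 0w c, with 17 higher (22.7%, against 12.3%), and -0.23 without 8w pw1 a. The 95% interval lay inside 1 in either direction for 44 of the 87 subunits and 36 of the 75 ribosomal genes, against 9.5% of all genes. That share depends on level, with 54.7% of all genes at 100 to 1000 CPM and 11.4% at 10 to 100 CPM. *Ndufs1* was at 88, 111 and 90.3 CPM at 0w and 32.2, 37 and 65.2 CPM at 8w pw1 (log2 fold change -1.10). *Ndufv1* was at 175, 106 and 66.9 CPM at 0w and 222, 182 and 201 CPM at 8w pw1. Both are subunits of complex I, and they separated the groups in opposite directions. The mitochondrially encoded genes had a median of 0.51, with 12 of 13 positive, and none of the 13 separated the groups. Their median was 0.08 without 8w pw1 a and 0.80 without 0w c, and in the latter case 8 of 13 did not overlap, all higher (61.5%, against 12.3% of all genes in that fit). The 13 genes took 1.00%, 0.965% and 1.34% of counts at 0w and 2.08%, 1.46% and 1.61% at 8w pw1. All transcripts of the mitochondrial genome together took 1.98%, 2.11% and 3.10% at 0w and 3.29%, 3.24% and 2.62% at 8w pw1.

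**Figure D3:**
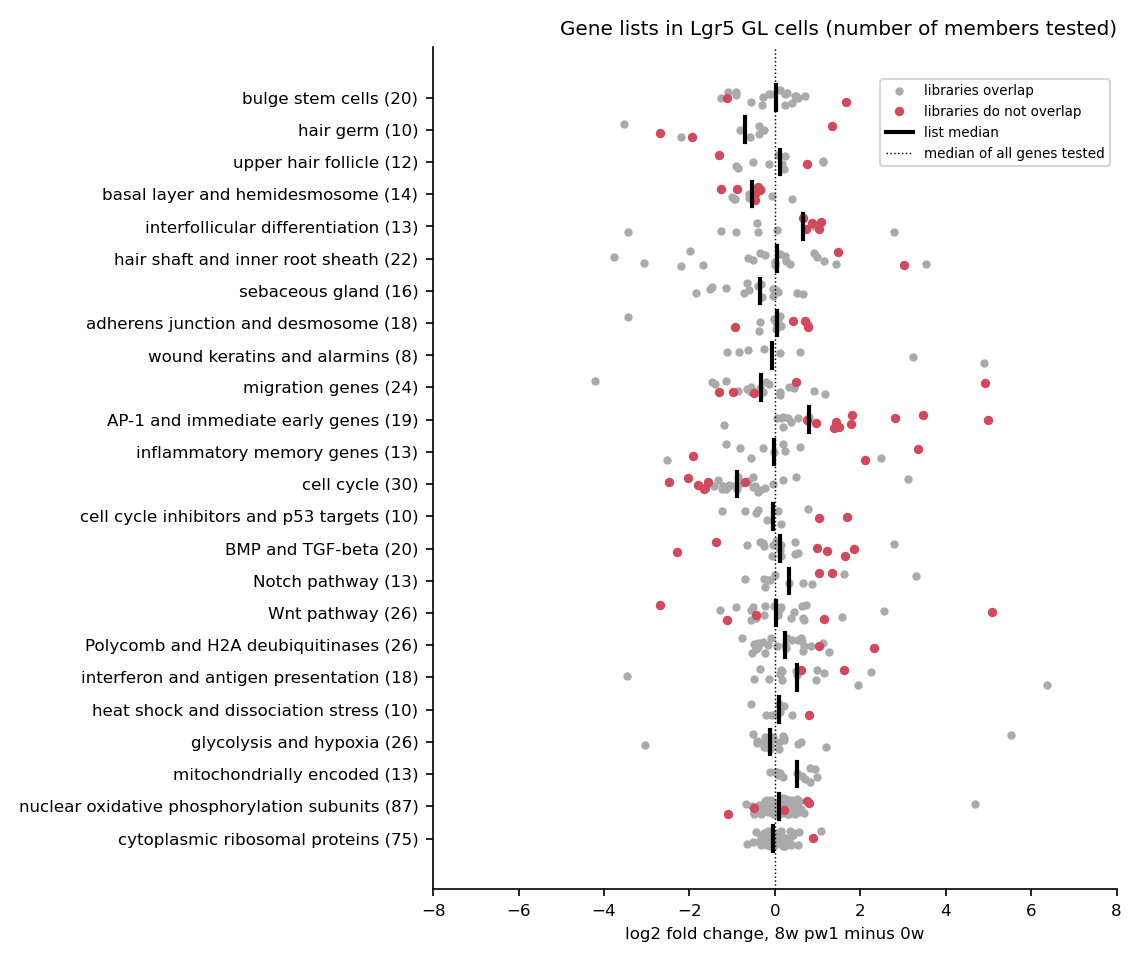
Log2 fold change at 8w pw1 against 0w of each tested member of 24 gene lists, with the number of members in parentheses. Red points are members whose 3 libraries of one group lie wholly above or below the other 3, grey points overlap, black bars are list medians, and the dotted line is the median of all genes. The bar of the AP-1 and immediate early genes lies at 0.81, and the ribosomal bar at -0.05. The bar of the basal layer and hemidesmosome genes lies at -0.54, and that of the cell cycle genes at -0.90.

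The other time points of the Lgr5 lineage place the 8w pw1 levels in the course of healing. The comparisons of 8w pw1 with 1w pw1 and 4w pw1 share their 8w pw1 libraries with the comparison above, and genes named for their levels in those libraries gain no independent support from them. *Id1* was at means of 161 CPM at 0w, 74.2 CPM at 1w pw1, 87.4 CPM at 2w pw1, 70 CPM at 4w pw1, 500.2 CPM at 8w pw1 and 185 CPM 1 week after a second wound (1w pw2). It was higher at 8w pw1 than at 1w pw1 (log2 fold change 2.76, SE 0.37, adjusted p = 0.00539) and than at 4w pw1 (2.84, SE 0.37, adjusted p = 0.00406), both past the threshold. *Dapl1* was at means of 116 CPM at 0w, 216 CPM at 1w pw1, 152 CPM at 2w pw1, 110.4 CPM at 4w pw1, 514 CPM at 8w pw1 and 269.8 CPM at 1w pw2, and it passed against 4w pw1 (log2 fold change 2.22, adjusted p = 0.00915) and not against 1w pw1 (1.25, adjusted p = 0.0755). *Ier2* was at means of 197 CPM at 0w, 208 CPM at 1w pw1, 205 CPM at 2w pw1, 269.7 CPM at 4w pw1, 688 CPM at 8w pw1 and 469.7 CPM at 1w pw2 and passed against 1w pw1 (log2 fold change 1.72, adjusted p = 0.03). *Jun* was at means of 185 CPM at 0w, 214 CPM at 1w pw1, 388 CPM at 2w pw1, 412 CPM at 4w pw1, 525 CPM at 8w pw1 and 891 CPM at 1w pw2, with its highest mean after the second wound. *Krt28* had means of 0.783 CPM at 0w, 0.169 CPM at 1w pw1 and 14.5 CPM at 2w pw1. Its mean was 63.5 CPM at 4w pw1, 6.74 CPM at 8w pw1 and 10.2 CPM at 1w pw2. At 8w pw1 it was lower than at 4w pw1 (log2 fold change -3.23, adjusted p = 0.045) and higher than at 1w pw1 (4.94, adjusted p = 0.0152).

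*Krt15* and *Fgf18* had low levels in the weeks after the wound and higher ones at 8w pw1. *Krt15* was at means of 16189 CPM at 0w, 7243 CPM at 1w pw1, 6112 CPM at 2w pw1, 3368 CPM at 4w pw1, 19196 CPM at 8w pw1 and 11855 CPM at 1w pw2, and the 8w pw1 level passed the test against 1w pw1 (log2 fold change 1.41, adjusted p = 0.0223) and 4w pw1 (2.51, adjusted p = 0.00179). *Fgf18* was at means of 45.4 CPM at 0w, 6.58 CPM at 1w pw1, 22.7 CPM at 2w pw1, 3.5 CPM at 4w pw1, 144 CPM at 8w pw1 and 38 CPM at 1w pw2, and it passed against both as well (log2 fold change 4.35 and 5.18, adjusted p = 0.0152 and 0.00915). *Bmp6* was at means of 16.5 CPM at 0w, 1.97 CPM at 1w pw1, 12.8 CPM at 2w pw1, 5.51 CPM at 4w pw1, 59.8 CPM at 8w pw1 and 30.1 CPM at 1w pw2 and passed against 1w pw1 (log2 fold change 5.11, adjusted p = 0.0152). *Krt14* went the other way, at means of 4978 CPM at 0w, 14406 CPM at 1w pw1, 4962 CPM at 2w pw1, 4684 CPM at 4w pw1, 3879.9 CPM at 8w pw1 and 3983 CPM at 1w pw2, lower at 8w pw1 than at 1w pw1 (log2 fold change -1.89, adjusted p = 0.0119). *Lamb3*, at means of 569 CPM at 0w, 363 CPM at 1w pw1, 196 CPM at 2w pw1, 136 CPM at 4w pw1, 236 CPM at 8w pw1 and 225 CPM at 1w pw2, was lower at 4w pw1 than at 0w (adjusted p = 0.014) and passed no test of 8w pw1. *Rrm2* was at means of 85.4 CPM at 0w, 162 CPM at 1w pw1, 105 CPM at 2w pw1, 63.3 CPM at 4w pw1, 24.8 CPM at 8w pw1 and 62.8 CPM at 1w pw2 and passed against 1w pw1 (log2 fold change -2.71, adjusted p = 0.0195). Of the 30 cell cycle genes, 7 were called lower at 8w pw1 than at 1w pw1 (against 0.521% of all genes) and 0 than at 4w pw1. Over all genes, 145 (0.804%) were called higher and 94 (0.521%) lower at 8w pw1 than at 1w pw1, and 41 (0.227%) and 18 (0.0999%) than at 4w pw1.

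**Figure D4:**
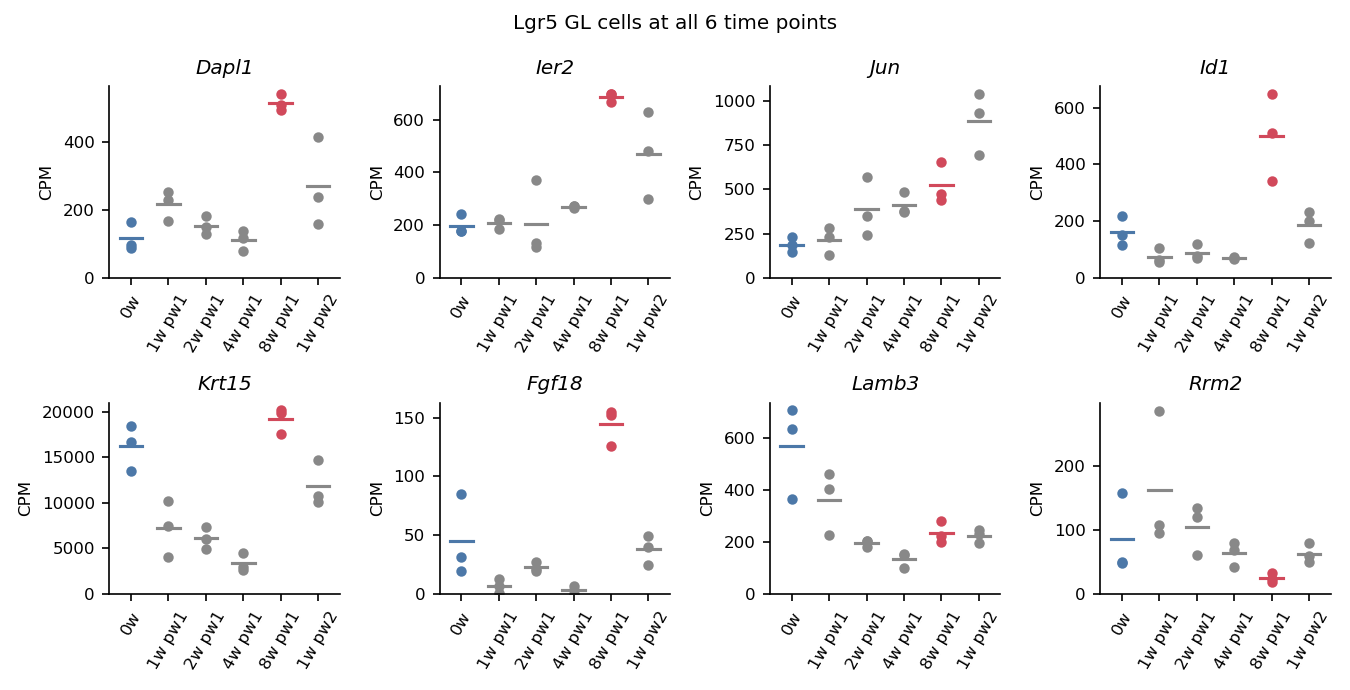
CPM of 8 genes in each library of Lgr5 GL cells at the 6 time points, with horizontal bars for group means, 0w in blue, 8w pw1 in red and the other times in grey. *Dapl1*, *Id1*, *Krt15* and *Fgf18* have their highest mean at 8w pw1, *Jun* at 1w pw2, and *Lamb3* at 0w.

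The change from 0w to 8w pw1 was also set against that of Lrig1 GL cells, labelled in the same way from Lrig1-EGFP-ires-CreERT2, whose stem cells lie in the junctional zone of the upper follicle. Both changes were fitted in 1 model on 13980 genes, and they differed at an adjusted p under 0.05 for 211 genes (1.51%), more positive in Lgr5 GL cells for 101 (0.722%) and more negative for 110 (0.787%). *Dapl1* had a mean of 116 ± 41.1 CPM at 0w and 514 ± 24.9 CPM at 8w pw1 in Lgr5 GL cells, and 387 ± 42.6 and 182 ± 75.3 CPM in Lrig1 GL cells (SD, n = 3 each). The difference of the log2 changes was 3.24 (SE 0.69, adjusted p = 0.0201). *Cdkn1a* had 129 ± 18.7 and 266 ± 19.3 CPM in Lgr5 GL cells and 329 ± 99.8 and 156 ± 20.8 CPM in Lrig1 GL cells, with a difference of 2.12 (SE 0.48, adjusted p = 0.0249). *Itgb1* had 246 ± 35.4 and 133 ± 14.3 CPM in Lgr5 GL cells and 139 ± 53 and 362 ± 58.9 CPM in Lrig1 GL cells, with a difference of -2.27 (SE 0.48, adjusted p = 0.0201). With the GC trend removed 22 genes differed, *Dapl1* among them (adjusted p = 0.0253), while *Cdkn1a* and *Itgb1* had adjusted p = 0.14 and 0.105. Mitochondrially encoded transcripts took 3.15% to 5.38% of counts in the Lrig1 0w libraries and 10.9% to 14.4% in those at 8w pw1, and their part in these differences was not tested. The count was 13 without Lgr5 8w pw1 a and 433 without Lrig1 0w b. *Dapl1*, *Cdkn1a* and *Itgb1* were named for their levels in Lgr5 libraries that entered this fit, so they gain no independent support from it.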

How the data were processed

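The authors sorted tdTomato+ tail epidermal cells, made full-length cDNA libraries with a modified Smart-seq2 protocol, without molecular identifiers, and deposited raw read counts per gene, 1 table for each lineage, which carry no normalization. The submitters' processing notes and methods name Trim Galore 0.5.0, HISAT2, featureCounts, mm10 (GRCm38) and GENCODE M20. Reads of overlapping genes and of genes with near-identical copies can be assigned wrongly by such counting.

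Groups came from the sample labels. The libraries a, b and c bear the column numbers 1, 2 and 4. The labels do not say whether replicates were separate mice, while the study's legend for the time course counts them as mice, and p-values measure the spread between these samples. No pair of libraries of a group was a duplicate (chi-square per degree of freedom 21.7 to 54.3). The comparison was fitted with edgeR 4.0.16 in R 4.3.3 on all 18 Lgr5 libraries, with filterByExpr (minimum count 10), TMM scaling, the quasi-likelihood F-test with 12 residual degrees of freedom and Benjamini-Hochberg adjustment. A gene was called at an adjusted p under 0.05 with a log2 fold change above 1 in size. Fitted fold changes used a prior count of 0.125. Floors used 3 counts over a group, and intervals of count ratios were exact at 95%. The difference between lineages was tested in 1 fit of all 36 libraries. The scripts were tested on simulated counts.

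The gene lists, the genes compared and the tests were chosen with earlier results of these data known, so list counts are descriptions. Named genes were the 12 higher and the 12 lower with the smallest p among those with a mean of at least 10 counts, a log2 fold change above 1 in size and no overlap of libraries (6 unnamed gene models were passed over), and in each list at most 6 members without overlap and the 3 with the highest level. *Lgr5*, *Cd34*, *Dst*, *Plec*, *Fosb*, *Jund*, *Atf3*, *Egr1*, *Dusp1*, *Krt1*, *Krt10*, *Cenpf*, *Hspb1*, *Tnc*, *Sparc*, *S100a8*, *S100a9* and *Xist* were named after their values were seen. Alternatives were DESeq2 1.42.0, limma-voom (limma 3.58.1), surrogate variables (sva 3.50.0), the likelihood ratio test, other filters and scalings, removal of a GC trend and leaving out each library. The values of some list members are not reported here.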

Additional observations from a re-analysis of the deposited data

Results flagged for a closer look

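The 8w pw1 minus 0w log2 difference in Lgr5 GL cells was set against that in Lrig1 GL cells. The gap between the 2 lineages was tested with edgeR's quasi-likelihood test and Benjamini-Hochberg adjustment. An adjusted p under 0.05 was reached by 7 of the 99 genes followed here, and by 1.51% of the 13980 genes tested in both lineages. Many of the 99 were chosen for their separation in the Lgr5 libraries that also enter this test. Their share is raised by that choice and cannot be read against the share of all genes. Some of the 99, such as *Golga7b*, were not tested in both. None of the 7 passed in all 12 fits that left out 1 library. *Dapl1* had a log2 fold change of 2.15 in Lgr5 GL cells and -1.09 in Lrig1 GL cells, a difference of 3.24 (SE 0.69, adjusted p = 0.0201), and it passed in 10 of 12 fits that left out 1 library. *Itgb1*, with -0.89 and 1.38, differed by -2.27 and also passed in 10 of 12. *Krt28*, with 3.02 and -4.38, differed by 7.40 and passed in 7 of 12. *Cdkn1a*, with 1.04 and -1.08, differed by 2.12 and passed in 6 of 12. *Kcnk7*, with 1.52 and -0.83, differed by 2.34 and passed in 4 of 12. *Zfp36*, with 1.78 and -1.14, differed by 2.92 and passed in 3 of 12.

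*mt-Co1*, a mitochondrially encoded subunit of cytochrome oxidase with nuclear copies, had 0.51 and 3.15, a difference of -2.65 (adjusted p = 0.0493) that passed in 0 of 12 such fits. In Lrig1 GL cells its mean was 4112 ± 397 CPM at 0w and 36388 ± 11194 CPM at 8w pw1 (SD, n = 3 each). With each library's trend on GC content removed, *Dapl1* was the one of the 7 that passed (difference 3.67, adjusted p = 0.0253), and the other adjusted p-values lay between 0.0789 and 0.45.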

How the results depend on the processing

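The comparison of 8w pw1 with 0w gave 0 calls in the quasi-likelihood fit and under 10 CPM in 3 libraries as the filter, no filter, DESeq2 size factors, a robust fit, the 6 libraries alone, the GC trend removed, Gm12415 left out and 2 surrogate variables with the quasi-likelihood test. It gave 35 calls with edgeR's likelihood ratio test, 68 with DESeq2, 93 with 2 surrogate variables and the likelihood ratio test and 1 with limma-voom, and 0 to 1 with 1 library left out. The number of genes at an unadjusted p under 0.05 was 1760 with 2 surrogate variables and the likelihood ratio test and 665 with the stricter filter. List members called numbered 14, 10 and 5 with the surrogate variables and likelihood ratio test, DESeq2 and the likelihood ratio test. Genes whose libraries did not overlap, which are easier to find in fewer libraries, numbered 1965 to 2460 higher and 1488 to 2248 lower with 1 library left out.

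The difference between Lgr5 GL and Lrig1 GL cells gave 717 genes with the likelihood ratio test, 22 with the GC trend removed and 13 to 433 with 1 library left out. It was smaller than in the report by more than 1.5 times without Lgr5 0w c (136), Lgr5 8w pw1 a (13), b (57) or c (116), Lrig1 0w a (63), or Lrig1 8w pw1 a (46), b (62) or c (91). The cause was not tested.

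The replicate numbers did not pair the libraries: the deviations of same-numbered libraries from their group means had r of -0.09, 0.04 and -0.14. A fit with the replicate block gave 0 calls and 563 genes at an unadjusted p under 0.05.

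Of 99 genes followed through 19 alternatives, 6 changed direction. None of these was among the 24 leading genes, whose choice required libraries that did not overlap. With 1 library left out *Sox9* ranged from -0.34 to 0.12, and was at 0.039 without 8w pw1 a, *Krt79* from -1.46 to 0.45, *Cst6* from -1.03 to 0.70, *Krt5* from -0.21 to 0.087, *Krt6a* from -0.20 to 0.41 and *Krt10* from -1.25 to 0.79. *Krt10* was at 0.0093 with 2 surrogate variables and the likelihood ratio test. *Cst6* was also at 0.16 under the replicate block and *Krt5* at 0.012 with limma-voom. The cause was not tested.

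With 3 libraries of 150 cells a group, a median standard error of 0.76 on the log2 scale and a biological coefficient of variation of 0.66, a difference of the size of 1 could not be bounded for most genes under 100 CPM. The same held for most of the 51 genes at 1000 CPM or more. The 6 libraries do not tell the wound from age or from time since labelling.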
